A study of Xenopus laevis with 11 samples.

Results

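Of 7759 gene pairs of Xenopus laevis with an L and an S copy, 674 had an accessible region at an end of the S copy and none at an end of the L copy (8.69%, 95% Wilson interval 8.08 to 9.33). These 674 S copies held 867 of the 58223 peaks of the whole list (1.49%). The pairs were chosen by the peak list itself. A pair was taken where at least 1 peak had its summit no more than 1 kb from an end of the S copy while no peak did so at the L copy, so the position of peaks relative to gene ends is a property of the choice and not a finding. Only protein-coding gene names found once as .L and once as .S, on matching chromosomes, were paired. By the same rule with the copies exchanged, 852 pairs had an end peak at the L copy alone (11.0%, 10.3 to 11.7), while 4108 had end peaks at both copies and 2125 at neither.

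X. laevis arose when the genomes of a pair of related frog species were joined, and most genes are therefore present as homeologs, 1 on a chromosome of the L subgenome and 1 on the matching chromosome of the S subgenome. DNA that is free of nucleosomes is cut and tagged by the Tn5 transposase in ATAC-seq, and promoters and enhancers bound by transcription factors are the usual sites of such open DNA. A promoter lies at the start of its gene, whereas enhancers often lie away from gene ends and can act on genes from a distance. In the blastula maternal pluripotency factors help to switch on the zygotic genome, and they bind some of the open sites at that stage. Binding of these factors was not examined here. The S subgenome is known to have lost more genes and sequence than the L subgenome.

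ATAC-seq was performed on animal caps, the explanted pluripotent ectoderm of the blastula, from wild-type embryos of the strain Xla.NXR-WTNXR. The labels name 6 libraries (4 replicates) of Nieuwkoop-Faber stage 9 and 5 libraries (3 replicates) of stage 8, each made from 2 caps per transposition reaction. The peaks came from 1 list that the authors called on the pooled stage 9 libraries; stage 8 and the separate libraries were not analysed here. No value below therefore has a replicate error and no test was made, and each comparison is a description in which intervals cover counting error only.

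The pooled list was shallow. Its median peak had 9 fragments at the summit and the weakest had 5, so weak accessibility could be missed at this depth. An end that lacks a peak is therefore not shown to be closed. Of 25 gene copies in a list of ectoderm regulators 23 had a peak within 10 kb (92.0%), and so had 17 of 19 copies of endoderm regulators (89.5%). Most genes had such a peak, since only 22.7% of S copies and 20.2% of L copies of all pairs had none within 10 kb. Peaks near a gene are not its expression, and these markers did not separate the tissues.

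The end peaks at S copies alone were weaker and narrower than end peaks of S copies whose L partner also had one. Their median fold enrichment over the control was 5.79 (quartiles 4.58 and 7.87, range 3.01 to 20.5), against 6.79 for the 6214 end peaks of S copies in pairs with end peaks at both copies, where the highest reached 44.4. The median summit was covered by 10 fragments (range 5 to 35), against 12 fragments in the pairs with both. A single summit with 10 fragments has an exact Poisson interval of 4.80 to 18.4, which is not an interval of the median. Median widths were 172 bp and 223 bp. A −log10 q-value of at least 10, a strict limit on the false discovery rate of the peak caller, was reached by 199 of the 867 peaks (23.0%), against 36.6% in the pairs with both. Peaks with 7 fragments or fewer made up 22.6% (196 peaks) and 13.8%. The 1162 end peaks at L copies alone were much the same as those at S copies alone, with a median fold of 5.92, 10 fragments and 21.8% at the strict limit. The rule used the presence of these peaks, so the strengths are given as a description.

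**Figure D1:**
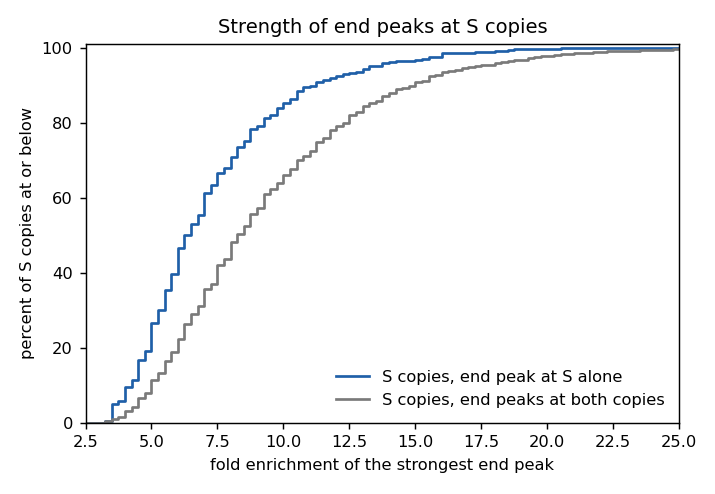
Cumulative percent of S copies (y axis) whose strongest end peak has at most the fold enrichment on the x axis, for S copies with an end peak at S alone (blue, 674 copies, median 6.23) and S copies in pairs with end peaks at both copies (grey, 4108 copies, median 8.25). The axis stops at 25, and the blue curve lies above the grey one, so the peaks at S alone sit at lower folds.

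Most S copies had a solitary end peak. Of the 674 copies, 501 had 1 end peak (74.3%), 143 had 2, 25 had 3, 4 had 4 and 1 had 5, whereas 56.5% of S copies in pairs with both had 1. The median distance from summit to gene end was 207 bp, against 186 bp in the pairs with both, and 48.9% and 51.6% of summits lay within 200 bp of the end. The summit lay inside the gene in 58.6% and 60.2%. The gene table gives no strand, so a peak at the start of a gene and one at its 3′ end could not be told apart, nor could exons, introns and UTRs. Another gene had an end within 1 kb of the summit for 120 of the 867 peaks (13.8%), against 10.7%, and 16 peaks were counted for 2 of the 674 genes. Such a peak can belong to either gene. Of the genes named below, this holds for the strongest end peaks of tbx2.S, gpx7.S, sfrpx.S and rpl6.S, among others.

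The strongest end peak at S alone stood at dag1.S, the gene of dystroglycan, which links the cytoskeleton to the extracellular matrix. It lay at chr4S:104583886-104584119 (assembly v10.1), 20 bp inside the gene, with a fold of 20.5 and 34 fragments (exact Poisson interval 23.5 to 47.5). The annotated spans of dag1 were 39960 bp at S and 160888 bp at L, so the ends of the copies may not correspond. The nearest summit to an end of dag1.L was 6722 bp away and had 10 fragments, and 2 peaks lay inside dag1.L. The second was atp5f1b.S, which encodes the catalytic subunit of the mitochondrial ATP synthase, with a fold of 20.3 and 32 fragments at chr2S:130375886-130376290. Next to atp5f1b.L the closest summit was 12384 bp from the end, with 16 fragments. laptm4a.S, the gene of a lysosomal membrane protein, had a fold of 19.1 with 30 fragments at chr5S:130557336-130557521, against a summit of 10 fragments at 2213 bp from the end of laptm4a.L. All 3 were therefore strong peaks by the standard of the list, and the summit nearest to an end of the L copy had fewer fragments in each. Further peaks around these L copies were not compared.

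Folds of the others among the 10 strongest reached up to 18.6. setdb1.S, which encodes a histone methyltransferase of heterochromatin, had 18.4-fold and 29 fragments at chr8S:94949063-94949316, and the nearest summit to setdb1.L was 32511 bp off. mccc2.S, a gene of leucine breakdown, had 17.8-fold and 29 fragments, with the nearest L summit at 6557 bp. cd81.S, which encodes a tetraspanin of the cell surface, had 34 fragments at chr4S:7288520-7289299, with the nearest L summit at 29793 bp.

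In 2 of the 10, the L copy had a summit between 1 and 2 kb from an end. eif3c.S, which encodes a subunit of the translation initiation factor eIF3, had 17.8-fold and 28 fragments at chr9_10S:115749952-115750768. eif3c.L had a summit of 15 fragments and 5.12-fold, 1076 bp inside its end. rnf169.S encodes a ubiquitin-binding protein of the response to DNA breaks and had 18.6-fold and 30 fragments. Inside rnf169.L, 1757 bp from the end, was a summit of 11.1-fold and 17 fragments.

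The most end peaks lay at tbx2.S, the gene of a T-box transcription factor, which had 5, the highest of 5.34-fold. The nearest summit to tbx2.L was 1288 bp from an end, and 14 distal peaks lay within 50 kb of the S copy against 9 at the L copy. The 4 copies with 4 end peaks were epc1.S (a subunit of a histone acetyltransferase complex, 10.7-fold), kazn.S (a desmosome-associated protein, 6.43-fold), gpx7.S (a peroxidase, 6.76-fold) and pou5f3.3.S. The last encodes a POU factor of the family that maintains pluripotency, and its highest end peak had 4.18-fold and 6 fragments. pou5f3.3.L had a summit of 11 fragments 1571 bp outside an end. Apart from epc1.S, none of these 5 copies had an end peak above 6.76-fold.

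At the threshold of 1 kb, prkca.L, which encodes a protein kinase C, had its nearest summit at 1003 bp with 21 fragments, hdgfl2.L at 1005 bp and nbeal2.L at 1014 bp, and all were taken as lacking an end peak. On the S side tcap.S, ndufa3.S and r3hdm4.S were taken with summits at 964, 961 and 944 bp. Just outside lay nrl.S and rara.S, whose nearest summits were at 1014 and 1023 bp. gas1, atp6v0e1 and il1b were left out because summits lay 993, 991 and 981 bp from an end of the L copy.

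At the L copies of the 674 pairs the nearest summit was a median of 8727.5 bp from a gene end. It lay between 1 and 2 kb in 99 pairs (14.7%), in 36 of which it had at least the fold of the strongest S end peak, between 2 and 5 kb in 144 (21.4%), between 5 and 10 kb in 110 (16.3%), between 10 and 20 kb in 115 (17.1%), between 20 and 50 kb in 126 (18.7%) and over 50 kb away in 80 (11.9%). L copies in pairs with an end peak at neither copy had 4.52% at 1 to 2 kb and 22.3% over 50 kb. The L copies of the S-alone pairs thus stood closer to accessible DNA than those of pairs with none. No peak at all lay within 10 kb of 275 of the 674 L copies (40.8%), against 60.7% in pairs with neither. With the copies exchanged, 47.7% of S copies in pairs with L alone had none, against 63.8% of S copies in pairs with neither. The trait was therefore not particular to the S-alone pairs. Peaks lay inside 524 S copies (77.7%) and 246 L copies (36.5%), the first number being set in large part by the rule. Requiring no summit within 2 kb of the L copy left 575 pairs, and requiring none within 5 kb left 431.

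**Figure D2:**
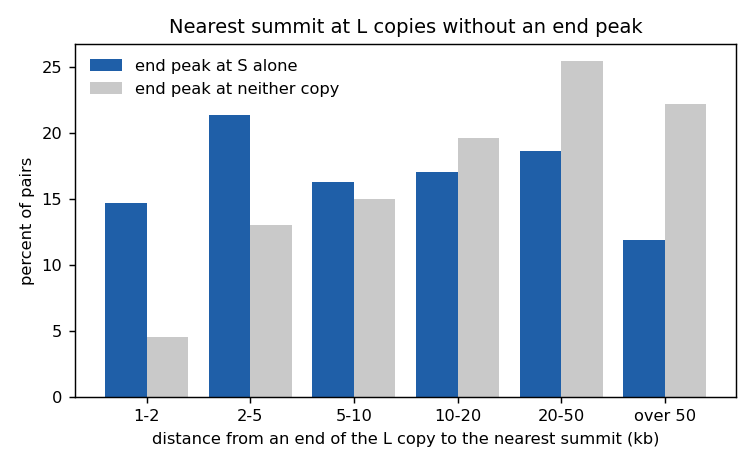
Distance from an end of the L copy to the nearest peak summit (x axis, kb) as percent of pairs (y axis), for the 674 pairs with an end peak at S alone (blue) and the 2125 pairs with an end peak at neither copy (grey). Blue bars exceed grey ones up to 10 kb and lie below them beyond.

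The sharpest one-sided pairs were 72 in which the strongest S end peak reached the strict limit and no peak lay within 10 kb of the L copy. They include atp5f1b, setdb1 and cd81 above, and ext1. Further ones, named after their values were seen, were pon2.S (a paraoxonase, 15.3-fold, nearest L summit 37367 bp), atp6v1c1.S (a subunit of the proton pump of lysosomes, 14.0-fold, 95647 bp), carhsp1.S (an RNA-binding protein, 13.3-fold, 20862 bp) and jund.S (an AP-1 transcription factor, 13.1-fold, 27522 bp). Gene spans were not matched in this choice. In some of the 72 they differed by more than 2-fold, as at ext1 (183401 bp at S, 34219 bp at L) and carhsp1 (18437 and 129116 bp). The ends of such copies may not correspond.

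Distal peaks, with summits over 1 kb from the ends of all protein-coding and lncRNA genes, were not used by the rule but came from the same list. At least 1 lay within 10 kb of the gene in 323 of the 674 S copies (47.9%, 44.2 to 51.7) and 342 L copies (50.7%, 47.0 to 54.5). Over all pairs these shares were 47.3% at S and 51.8% at L, so the S-alone pairs sat near the background at both copies. Within 50 kb the S copies had a mean of 2.52 distal peaks (median 1) and their L partners 2.80 (median 2), a difference of −0.28. Pairs with an end peak at L alone had means of 2.28 and 3.04, pairs with both 3.11 and 3.69, and all pairs 2.56 and 3.03. The S copy thus carried fewer distal peaks on average even where it alone had an end peak. With end windows of 2 kb the difference became 0.13. That setting leaves out L copies with summits at 1 to 2 kb. S summits at 1 to 2 kb qualify a pair there and can still count as distal. When distal was also set to over 2 kb from an end the difference was −0.16. It was −0.11 with distal peaks inside the gene left out and −0.13 among the pairs with spans within 5% of each other. With peaks of −log10 q of at least 10 it was −0.11, and with peaks of at least the median fold −0.16. Both of these limits also removed distal peaks and changed the members, so their values are not on one scale with −0.28. The size of the difference depended on all these choices.

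More distal peaks lay at S than at L in 237 of the 674 pairs (35.2%, 31.7 to 38.8), against 33.4% of all pairs. Fewer lay at S in 288 (42.7%, 39.0 to 46.5), against 44.3% of all pairs, and the numbers were equal in 149 (22.1%). Both intervals held the background. Where L alone had an end peak, 29.5% had more at S and 48.6% fewer. Distal peaks within 50 kb stood at both copies in 410 of the 674 pairs, at S only in 90, at L only in 115 and at neither in 59. The L copy, without an end peak by the rule, had distal accessible DNA in 525 pairs (77.9%), against 77.3% of all pairs. The S copy had it in 500 (74.2%), against 72.8% of all pairs. Both copies thus sat near the background, and the split by copy is not given for all pairs.

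**Figure D3:**
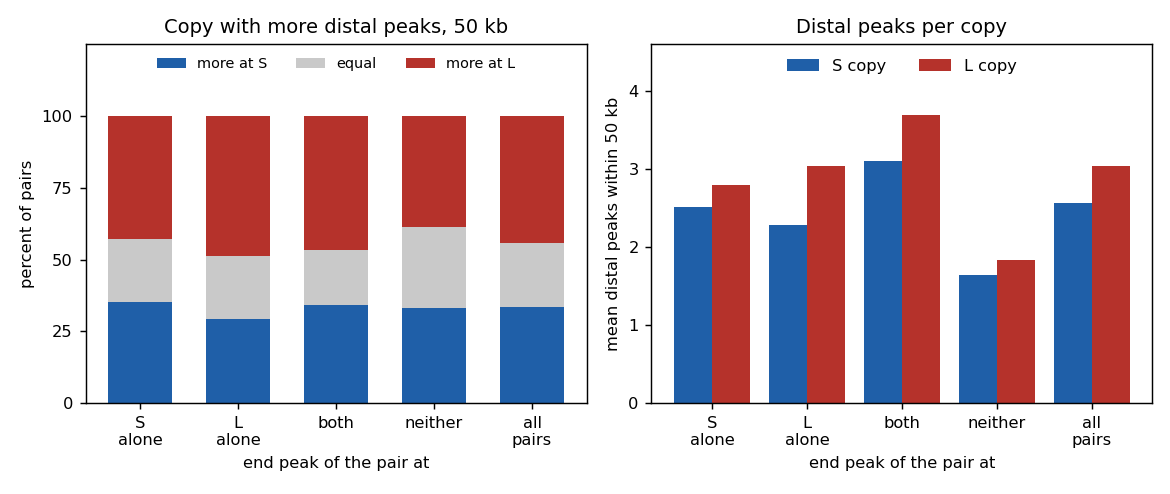
Left, percent of pairs (y axis) with more distal peaks within 50 kb at S (blue), equal numbers (grey) or more at L (red), by where the pair had its end peak. Right, mean number of distal peaks within 50 kb of S copies (blue) and L copies (red). In the 674 S-alone pairs 35.2% had more at S and the means were 2.52 and 2.80.

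The largest excess of distal peaks at S was at eef1a1o, the oocyte form of a translation elongation factor, with 11 at the S copy and 0 at the L copy. Its neighbour ppt1, a lysosomal thioesterase, had 11 and 1, and the neighbours shared end peaks of 10.5-fold and 7.99-fold on chromosome 2S. The 50 kb windows of these neighbours overlap, so the same distal peaks can be counted for both. ncoa1, a coactivator of nuclear receptors, had 15 and 5, and slc17a5, a lysosomal sialic acid transporter, had 20 and 11. ext1, which encodes a polymerase of heparan sulfate, had 9 at the S copy and 0 at the L copy beside an end peak of 17.5-fold and 35 fragments. The annotated spans of ext1 were 183401 bp at S and 34219 bp at L, so the copies offered unequal room for peaks.

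The opposite excess was found at znf638, a zinc finger protein, with 2 distal peaks at the S copy and 20 at the L copy although the end peak of 9.22-fold was at S alone. add3, an adducin of the membrane skeleton, had 21 and 37, spef1, a microtubule-binding protein of flagella, had 2 and 15, galnt7, a glycosyltransferase of mucin-type sugars, had 7 and 19, and scx, a tendon transcription factor, had 6 and 17. At add3.L the nearest summit was 1284 bp from an end and had 11 fragments, as many as the end peak of add3.S. The copy with the end peak was therefore not always the copy with more distal peaks. The annotated span of znf638 was 44401 bp at S and 77972 bp at L, while galnt7 and scx had the longer span at S.

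The S-alone pairs were spread over all 9 chromosome pairs, from 7.70% of the pairs on chromosome 3 to 9.48% on chromosome 7. Pairs with an end peak at L alone were more frequent in 8 of the 9, and chromosome 6 had 48 S-alone and 44 L-alone pairs. On chromosome 1 the shares were 9.09% (106 of 1166) and 12.8%. The mean S minus L difference in distal peaks among the S-alone pairs was below 0 on 5 of 9 chromosome pairs and ranged from −0.97 on chromosome 8 to 0.51 on chromosome 2. Over all pairs the difference was below 0 on every chromosome pair, with −1.54 on chromosome 8 and −0.15 on chromosome 2.

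**Figure D4:**
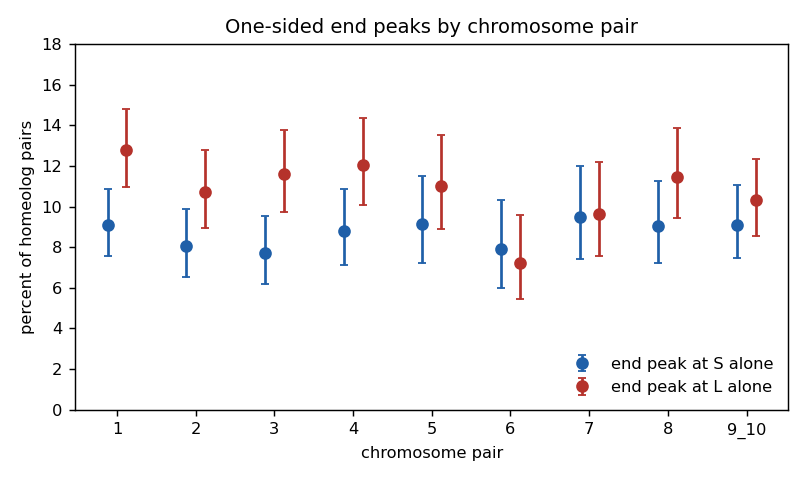
Percent of homeolog pairs (y axis) with an end peak at S alone (blue) and at L alone (red) on each chromosome pair (x axis), with 95% Wilson intervals as bars. S alone ranges from 7.70% to 9.48%, and chromosome 6 is the only one with the blue point above the red one.

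In 69 couples both of a pair of genes next to each other in the order of paired genes had their end peak at S alone, which involved 133 of the 674. Of the 1345 neighbours of S-alone pairs 10.3% were S alone, near the background of 8.69%, and of the 1702 neighbours of L-alone pairs 11.6% were L alone, with 11.0% as the background. An end peak was shared by the genes of 13 of the 69 couples, as by eef1a1o and ppt1, which shared both of the end peaks of eef1a1o.S, and by snap29 and pi4ka. Couples without a shared peak, named after their values were seen, were lin28a with sh3bgrl3 and with dhdds on chromosome 2S, lin28b with grik2 on 5S and hoxd9 with hoxd10 on 9_10S. hoxd9.S and hoxd10.S had separate end peaks of 6.87-fold and 6.79-fold.

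Annotated gene spans of the copies were less alike in the one-sided pairs. They differed by more than 2-fold in 84 of the 674 pairs (12.5%), against 4.26% of pairs with both, 9.41% of pairs with neither and 12.7% of pairs with L alone. The S copy was the longer in 40 of the 84 and the L copy in 44. Where a copy is annotated too short or too long, its ends are not where the window was placed, and the part of this in the result was not tested. The extremes were htr1f (a serotonin receptor, 100975 bp at S and 1643 bp at L), tshz1 (a zinc finger factor, 65180 and 3201 bp), epc1 (3366 and 56154 bp) and ribc1 (5023 and 73953 bp). Without the 84 pairs 590 remained. Among the 1319 of all pairs with spans within 5% of each other, 90 were S alone (6.82%) and 123 L alone. A neighbouring gene had an end within 1 kb at 110 S copies (16.3%) and 87 L copies (12.9%). The values were 15.7% and 18.9% in pairs with both. Reads that fit both subgenomes equally well had been removed, which can leave no peak where the copies are nearly identical, and this was not tested.

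By function, genes of 24 lists drawn by patterns in gene symbols were counted. The lists held 3624 pairs, of which 333 were S alone (9.19%), and the other 4135 pairs held 341. Shares are given of all pairs of a list against the background of 8.69%, and of pairs with an end peak at 1 or both copies, of which 674 of 5634 were S alone (12.0%, 11.1 to 12.8). Ribosomal proteins and translation factors had 17 of 113 pairs at S alone (15.0%, 9.61 to 22.8) and 12 at L alone, the only list whose interval lay above 8.69%. Adhesion, junction, matrix and keratin genes had 9 of 219 (4.11%, 2.18 to 7.62), the only list below it. Among pairs with an end peak the shares were 16.2% (17 of 105) and 9.47% (9 of 95), and the interval of each then held 12.0%. None of these counts was tested, and with 24 lists intervals that miss the background are no result about a list.

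**Figure D5:**
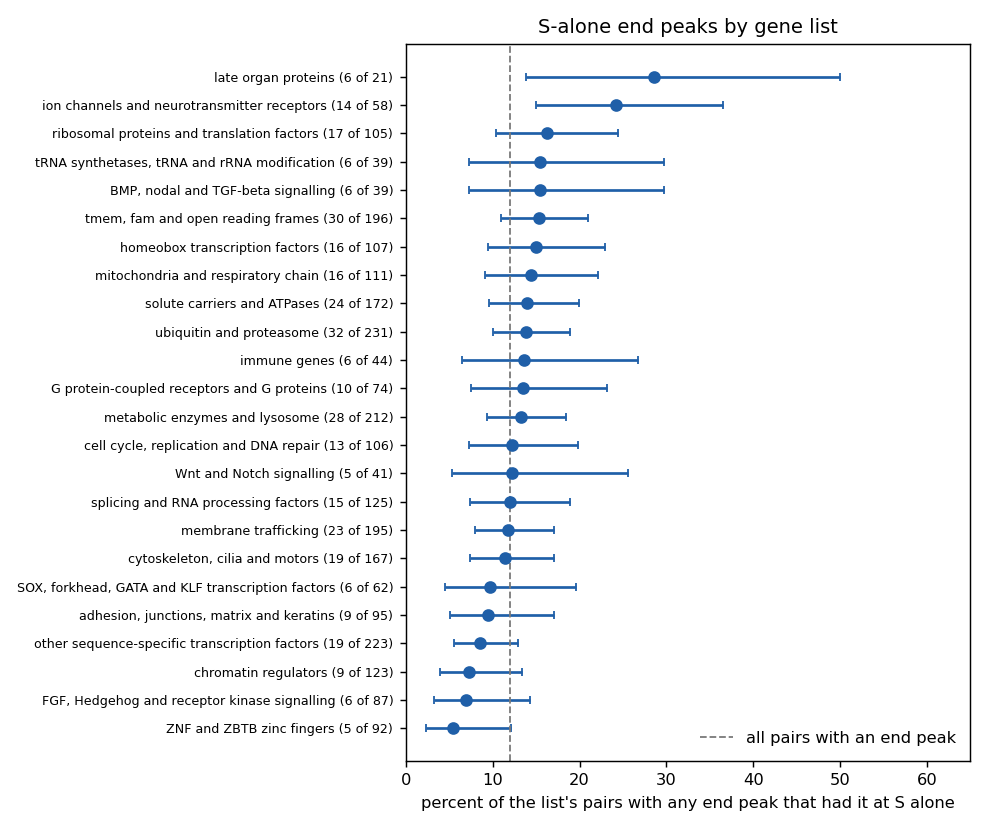
For each gene list, the percent of its pairs with any end peak that had it at S alone (points, x axis) with 95% Wilson intervals; counts stand in the row names and the dashed line marks 12.0%. Intervals of the upper 2 lists, late organ proteins and ion channels, lie above the line, and none lies wholly below it. L alone held 8 and 23 pairs of these lists, against 6 and 14 at S alone.

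In the translation list the cytosolic ribosomal proteins rpl6, rpl27, rpl36 and rps9 had end peaks at S alone, of 3.96-fold (rpl36.S) to 10.8-fold (rpl6.S). rps9.S had 9.84-fold and 15 fragments, and the nearest summit to an end of rps9.L was at 119761 bp. The peak of rps9.S was counted also for sult2a1.S. The initiation factor genes eif3c, eif3k, eif2b1 and eif6 and the mitochondrial ribosomal proteins mrps2, mrps12, mrps31, mrps33, mrpl3 and mrpl42 belonged to the list as well. mrps12.S was the highest of these after eif3c.S, with 13.0-fold and 22 fragments at a peak also within 1 kb of another gene's end. Counted by family after the values were seen, 5 of 54 cytosolic and 6 of 20 mitochondrial ribosomal protein pairs were S alone, against 6 and 3 at L alone. The pattern also caught rps6kb1, a kinase that acts on a ribosomal protein.

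Mitochondrial genes had 16 of 122 pairs at S alone (13.1%, 8.24 to 20.2), an interval that held the background, and 13 at L alone. Besides atp5f1b the S-alone pairs included atp5f1c and atp5pd of the ATP synthase, ndufa1, ndufa3, ndufa5, ndufb1 and ndufb6 of the NADH dehydrogenase, the import receptor tomm20 and the fusion factor opa1. Counted by family after the values were seen, 13 ATP synthase pairs had 3 at S alone, 0 at L alone and 9 at both. The 22 NADH dehydrogenase pairs had 5, 3 and 12. slc25a16.S, a carrier of the inner membrane, had 15.3-fold and 25 fragments at a peak also within 1 kb of another gene's end. tomm20.S had 3.09-fold and 7 fragments, close to the lowest of these end peaks.

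Ubiquitin and proteasome genes had 32 of 276 pairs at S alone (11.6%) and 32 at L alone. rnf169.S and nedd4l.S, the gene of a ubiquitin ligase that acts on sodium channels (14.6-fold, 29 fragments), were the strongest. The strongest end peaks of the proteasome subunits psma4, psma5, psma6, psmb5, psmc3 and psmd7 ran from 4.25-fold at psmd7.S to 6.76-fold at psma6.S. Chosen after the values were seen, 32 pairs of such subunits had 6 at S alone, 3 at L alone, 19 at both and 4 at neither. At psma4.L a summit of 17.8-fold and 28 fragments lay 48429 bp from the gene.

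Cell cycle, replication and repair genes had 13 of 115 pairs at S alone and 13 at L alone. rad21.S, of the cohesin ring that holds sister chromatids together, had 16.0-fold and 25 fragments at chr6S:122918173-122918755, and a summit of 9.26-fold and 23 fragments lay 1476 bp outside an end of rad21.L. smc3.S, of the same ring, had 4.24-fold and 10 fragments. cdc25a.S, the gene of a phosphatase that activates cyclin-dependent kinases, had 11.4-fold and 18 fragments, with the nearest L summit at 1865 bp. The list also held gmnn, an inhibitor of replication licensing, and rad50. Symbol patterns also brought in genes that are not cell cycle genes, among them cdc42ep4, cdc42se1 and aurkaip1.

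Splicing and RNA processing genes had 15 of 137 pairs at S alone and 14 at L alone. The helicase gene ddx23.S had 11.7-fold and 18 fragments and dcp2.S, the gene of the mRNA decapping enzyme, 11.1-fold and 18 fragments. lin28a and lin28b, RNA-binding proteins that block maturation of let-7 microRNAs, were both S alone. lin28a.S had 3 end peaks, of up to 4.39-fold, with 8 distal peaks at S and 2 at L. lin28b.S had 1 end peak of 7.26-fold and 13 fragments, with 4 distal peaks at S and 11 at L. The pair of genes therefore differed in which copy had more distal peaks.

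Homeobox genes had 16 of 148 pairs at S alone (10.8%) and 11 at L alone, and 80 had end peaks at both. meis3.S, a cofactor of Hox proteins in the hindbrain, had 11.4-fold and 18 fragments, and the nearest summit to meis3.L was at 29230 bp. dmbx1.S, a brain homeobox gene, had 9.90-fold and 17 fragments, and dmbx1.L had a summit of 9 fragments at 1212 bp. Further members were hoxa9, hoxc12, hoxd9, hoxd10, lhx1, en2, irx5, pou3f1, pou5f3.3, satb1 and ventx1.1, a ventralising factor downstream of BMP whose S copy had 6.76-fold, with 12 distal peaks at S and 8 at L. Of 23 Hox pairs, counted after the values were seen, 4 were S alone, 2 L alone, 12 both and 5 neither.

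SOX, forkhead, GATA and KLF genes had 6 of 78 pairs at S alone and 3 at L alone. sox9.S, a regulator of neural crest and cartilage, had 7.64-fold and 13 fragments 9 bp inside its end at chr9_10S:19840491-19840680. The nearest summit to an end of sox9.L was at 134848 bp, and distal peaks within 50 kb numbered 3 at S and 0 at L. The spans were 5594 and 22309 bp. foxo6.S had 6.56-fold and 16 fragments, while foxo6.L had a summit of 8.38-fold and 15 fragments 1117 bp from an end. The remaining members were foxj1, sox12, sox14 and sox18. The other sequence-specific factors had 19 of 272 (6.99%), led by stat5b.S, a transducer of cytokine signals (16.0-fold, 25 fragments), and jund.S. The peak of stat5b.S also lay within 1 kb of another gene's end. tbxt.S, the mesoderm gene Brachyury, had 2 end peaks of up to 5.59-fold and 11 fragments, and the nearest summit to tbxt.L was at 97201 bp.

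Genes of BMP, nodal and TGF-beta signalling had 6 of 57 pairs at S alone and 7 at L alone. chrd.1 and nog encode Chordin and Noggin, secreted antagonists that bind BMP ligands. chrd.1.S had 13.5-fold and 21 fragments at chr5S:86327826-86328197, the nearest summit to chrd.1.L was at 40942 bp, and 2 distal peaks lay at S against 1 at L. nog.S had 8.22-fold and 15 fragments at chr9_10S:28716225-28716369. The nearest summit to an end of nog.L was at 188532 bp, and neither copy of nog had a distal peak within 50 kb. The ligand gene bmp3.S had 6.98-fold and 12 fragments, and the receptor genes bmpr2.S and tgfbr2.S had 5.53-fold and 3.88-fold. tgfb1i1.S (16.0-fold, 25 fragments) was caught by its symbol and encodes a focal adhesion protein. These pairs thus held genes of antagonists, a ligand and receptors.

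Wnt and Notch genes had 5 of 53 pairs at S alone. sfrpx.S, the gene of a secreted Frizzled-related protein, had 9.22-fold and 14 fragments, with 8 distal peaks at S and 15 at L. lgr5.S, a receptor of R-spondins, had 7.68-fold and 23 fragments, and the summit nearest to an end of its L copy was at 77304 bp. The receptor gene fzd6.S had 7.33-fold and the ligand gene wnt6.S 5.69-fold. FGF, Hedgehog and receptor kinase genes had 6 of 129 (4.65%) at S alone and 16 at L alone, led by dusp9.S, a phosphatase of MAP kinases (11.6-fold, 20 fragments). spryd3.S (10.2-fold) was caught by its symbol and is not known to be one of them.

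Chromatin regulators had 9 of 130 pairs at S alone (6.92%, 3.68 to 12.6) and 9 at L alone, and 105 had end peaks at both copies. setdb1.S was followed by phf13.S, a reader of methylated histones, with 14.1-fold and 22 fragments. tet3.S, which oxidises methylated cytosine, had 8.61-fold, with 4 distal peaks at S and 12 at L. ring1.S, of the Polycomb repressor, had 6.15-fold. Zinc finger genes of the ZNF and ZBTB kinds had 5 of 106 (4.72%) at S alone and 15 at L alone, with znf638.S and znf474.S (6.45-fold) the strongest.

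Among genes of membranes and transport, trafficking had 23 of 217 at S alone and 37 at L alone, with rab15.S, a GTPase of endosomes (15.4-fold, 24 fragments), and stx6.S, a syntaxin of the Golgi (12.7-fold, 22 fragments), the strongest. Solute carriers and ATPases had 24 of 248. Ion channels and neurotransmitter receptors had 14 of 140 pairs at S alone (10.0%), 23 at L alone and 21 at both. Of the 58 with an end peak 24.1% were S alone (15.0 to 36.5). The 14 include htra3, which was caught by its symbol and is not a channel or receptor gene. kcnh5.S, a potassium channel, had 8.75-fold and 15 fragments. G protein-coupled receptors and G proteins had 10 of 160, led by lpar4.S, a receptor of lysophosphatidic acid (12.9-fold), and gnb4.S, a G protein subunit (10.5-fold). The peak of gnb4.S also lay within 1 kb of another gene's end.

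Metabolic and lysosomal enzymes had 28 of 261 pairs at S alone, with ext1.S and elovl5.S, an elongase of fatty acids (15.0-fold, 30 fragments), the strongest. elovl5.L had a summit of 17.6-fold and 33 fragments 1865 bp outside an end, higher than the end peak of its S copy. tRNA and rRNA modification genes had 6 of 43, among them nsun7.S (16 fragments). nol4l.S (15.5-fold, 31 fragments) came in by its symbol and is not known to be one of them. Cytoskeleton, cilia and motor genes had 19 of 212, led by kif3a.S, a kinesin of cilia (13.1-fold, 22 fragments), and tubb4a.S, a tubulin (12.3-fold). The uncharacterised tmem, fam and open reading frame genes had 30 of 252.

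The adhesion list held dsc3.S, a desmosomal cadherin (10.2-fold, 20 fragments), anxa7.S, an annexin (9.95-fold), and krt70.S, a keratin (8.79-fold). Immune genes had 6 of 102, with cd81.S and casp10.S, a caspase (11.1-fold), the strongest. Late organ proteins of muscle, blood, liver and lens had 6 of 112 (5.36%), with 91 of the 112 at neither copy. myot.S, a protein of the muscle Z-disc, had 12.9-fold and 20 fragments. That peak was counted also for cystm1.S and lay 77 bp from an end of cystm1.S, so it can belong to either gene. tnnt3.S, a troponin of fast muscle, had 7.38-fold and 11 fragments. Of the 21 late organ pairs with an end peak 6 had it at S alone (28.6%, 13.8 to 50.0), 8 at L alone and 7 at both.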

How the data were processed

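The authors aligned reads to the X. laevis v10.1 genome, removed alignments of low mapping quality, retained sub-nucleosomal fragments, pooled the stage 9 libraries and called peaks, with no-antibody CUT&RUN libraries as the pooled control. The submitters' processing notes name Bowtie2 2.4.2, MACS2 2.2.7.1 and bedtools 2.30.0. The control is another assay, so cutting preferences of Tn5 are not removed by it.

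The deposited list gives for each peak its position, a score, a fold enrichment (a ratio of coverage at the summit to local background) and p- and q-values as −log10, all as the authors' caller wrote them. From fold and p, with the pseudocount of 1 that MACS2 adds, the fragments at each summit were recovered for 58217 of 58223 peaks (99.99%), with a relative tolerance of 0.0001 on the −log10 p-value. The other 6 had no solution.

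Gene positions came from the RefSeq gene table of v10.1, which has no strand or transcripts, and 58215 peaks lay on its 18 chromosomes. Pairs, end peaks (summit within 1 kb of either gene end) and distal peaks (summit over 1 kb from the ends of all 34461 protein-coding and 3912 lncRNA genes, counted within 10 or 50 kb of the gene body, peaks inside it included) were computed with Python 3.11.15 and pandas 2.3.3. Positions are 1-based. Scripts were tested on simulated data. Wilson intervals (95%, scipy 1.17.1) and exact Poisson intervals cover counting error only, since PCR copies are not independent molecules. No test was made, because 1 pooled list has no replicates.

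Members and lists were chosen with earlier results of these data known. Genes named were the 10 of highest fold, the 5 with most end peaks, the 5 with the largest distal excess at each copy, the 2 strongest of each list, the 3 nearest each side of the threshold and the 2 extremes of span ratio at each end. Others, including counts by family, were added after their values were seen. Some genes that the rule names are not reported here. Promoter and protein sequences were not used here. Alternatives were other windows, stricter peaks, peak overlap in place of the summit, pairs of like span, peaks of other genes left out and other distal windows.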

Additional observations from a re-analysis of the deposited data

How the results depend on the processing

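The share of pairs with an end peak at S alone (8.69%) was 9.67% with windows of 500 bp, 10.6% with peaks of −log10 q of at least 10, 10.7% with peaks of at least the median fold, 11.4% with peaks at another gene's end left out and 6.82% among pairs with spans within 5%. That last setting has fewer pairs by construction, 90 at S alone and 123 at L alone. The cause of the other moves was not tested. The S-alone count otherwise ran from 575 to 882, and 431 pairs were left when the L copy had no summit within 5 kb, a setting chosen after seeing the data. The members changed more than their number. Of 825 S-alone pairs with the strict peaks 196 were among the 674, and of 830 with peaks of at least the median fold 436 were. The mean S minus L difference in distal peaks (−0.28) became 0.13 with end windows of 2 kb. By construction, that setting excludes distal peaks at 1 to 2 kb from an L end but can still count those at S. The difference was −0.16 when distal was also set to over 2 kb and −0.11 with distal peaks outside the gene only, both chosen after seeing the data. It was −0.11 with the strict peaks, −0.16 with peaks of at least the median fold, −0.13 among pairs with spans within 5% and −0.16 within 10 kb. Stricter peaks and a narrower distal window leave fewer distal peaks to count, so those values are not on one scale with −0.28. The share of S copies with a distal peak within 10 kb (47.9%) was 51.8% with end windows of 2 kb, 9.09% with the strict peaks, 24.8% with peaks of at least the median fold and 74.2% within 50 kb, the last 3 by construction of fewer peaks or a wider window.

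No paired analysis was possible because the only values are those of 1 pooled peak list. For the same reason no replicate was left out. An alternative with gene starts alone was not run, since the gene table has no strand, and sequences of promoters and proteins were not compared. Weak peaks, with as few as 5 fragments, limit every statement on absence.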
